A study of Mus musculus with 6 samples.

Results

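The radial glia and Notch progenitor markers are 10 genes that label dividing neural progenitors: Sox2, Sox9, Pax6, Nes, Vim, Fabp7, Slc1a3, Notch1, Hes1 and Hes5. Every probe whose platform symbol was one of these genes was taken, which gave 18 of 41174 probes and 10 of 18295 genes, and the rule uses symbols alone. The RNA came from neurons sorted by flow cytometry for a GFP allele of Pitx3, a homeodomain factor of midbrain dopaminergic neurons, from mouse embryos at E14.5. One pool of Pitx3(gfp/-) neurons, labelled Pitx3-GFP/AK and called null here, was hybridised against 3 pools of Pitx3(gfp/+) neurons, labelled Pitx3-GFP/wt and called heterozygous here. Each heterozygous pool was compared with the null pool on 2 two-colour arrays with the dyes exchanged, which makes 6 arrays. Both genotypes carry 1 GFP allele at Pitx3, so the heterozygous neurons are not wild type. The labels do not spell out what AK stands for. Each pool held several embryos and 69000 to 83000 cells, per the labels, and the RNA was amplified in 2 rounds. The null RNA was 1 pool, so n = 3 below counts heterozygous pools, and the error leaves out the spread between null pools. The labels do not state how pure the sort was.

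Radial glia are the elongated progenitors of the embryonic brain. They line the ventricle, divide to give neurons, and carry the intermediate filaments nestin and vimentin, the lipid-binding protein Fabp7 and the glutamate transporter Slc1a3. Notch signalling keeps them undifferentiated: a ligand on a neighbouring cell leads to cleavage of the receptor, and the released intracellular domain joins the DNA-binding protein RBPJ to switch on Hes repressors, which hold back proneural genes. In differentiating neurons, including midbrain dopaminergic neurons, these genes are normally turned down.

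Hes5 and Fabp7 had the 2 highest mean ratios among the genes that lay above 0 on all 6 arrays. Their promoters are shown for this, and because Hes5 is a target of the Notch and RBPJ complex. The RefSeq table of build GRCm38.p6 held 9 promoters for 8 of the 10 genes. Each runs from 250 bases before the start of the gene to 50 after it. Capitals mark the core of the RBPJ motif, TGGGAA, or its reverse complement TTCCCA, and both strands were searched for this motif alone. The Hes5 promoter is chr4:154960673-154960972 on the plus strand, and the Fabp7 promoter is chr10:57784673-57784972 on the plus strand.
Hes5: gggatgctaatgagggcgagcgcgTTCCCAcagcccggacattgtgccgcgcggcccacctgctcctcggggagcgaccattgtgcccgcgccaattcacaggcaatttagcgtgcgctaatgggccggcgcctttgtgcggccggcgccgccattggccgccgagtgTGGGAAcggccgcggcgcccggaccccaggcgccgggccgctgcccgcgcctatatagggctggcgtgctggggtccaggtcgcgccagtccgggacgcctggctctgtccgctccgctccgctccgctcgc
Fabp7: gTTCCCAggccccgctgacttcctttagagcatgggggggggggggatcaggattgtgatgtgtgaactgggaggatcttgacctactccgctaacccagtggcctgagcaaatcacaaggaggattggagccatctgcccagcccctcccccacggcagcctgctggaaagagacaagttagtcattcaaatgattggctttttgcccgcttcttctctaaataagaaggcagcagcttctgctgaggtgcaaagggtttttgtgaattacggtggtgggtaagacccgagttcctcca
Hes5 held 2 matches, whose last printed bases lie 221 and 77 bases before the start, and Fabp7 held 1, whose last printed base lies 244 bases before it. The other 7 promoters held none in this window. The motif was found in 2 of 9 promoters of the set (22.2%) and in 8397 of 32851 promoters of the table (25.6%), which are similar shares. A match describes letters and does not show binding.

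Most of the markers were detected in the sorted cells of both genotypes. A probe counts here as well above background on an array if its scanner signal is over the median of the local background plus 2 background SDs. A gene counts as above background if its probe met this on 3 or more of the 6 arrays for either RNA. By this measure 9 of the 10 genes and 12 of the 18 probes were above background, against 12291 of all 18295 genes. Hes1 was the gene that was not, and 1 probe each of Pax6 and Slc1a3 was not above background on any array in either RNA. Across all genes, 54.6% to 68.8% were well above background in the null RNA and 47.6% to 71.4% in the heterozygous RNA of an array. By the same measure 10 of 12 measured dopaminergic genes were above background, while Th and En1 were not well above it on any array in either RNA. With so many of all genes above background, this count does not measure dopaminergic identity. The Pitx3 probe read a log2 ratio of -0.08 ± 0.32 (SD, n = 3), with pools at -0.45, 0.12 and 0.07. The files do not place this probe within the gene, so its value does not check the genotypes. In sorted pools, fewer cells that carry a marker and less of its RNA per cell cannot be told apart.

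**Figure D1:**
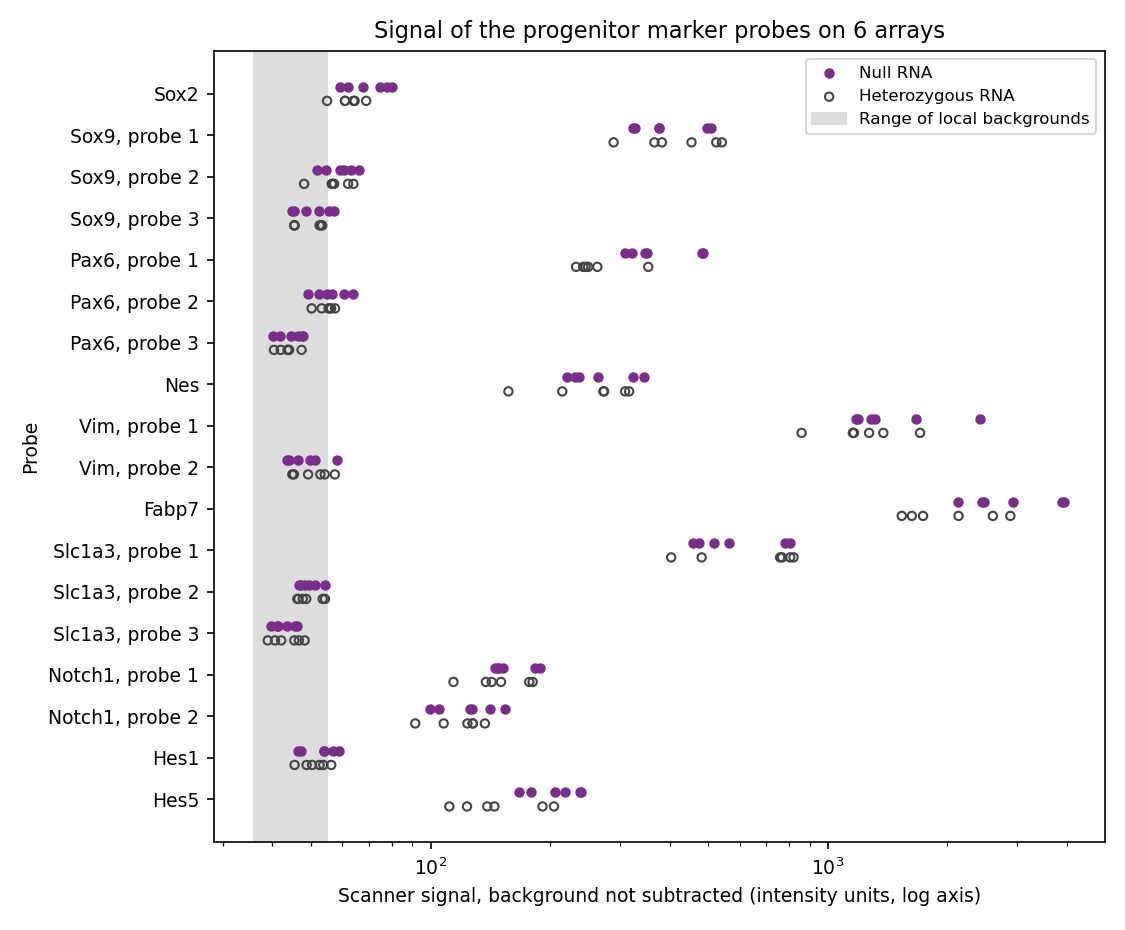
Scanner signal of all 18 probes on the 6 arrays, in intensity units on a log axis, with null RNA as filled purple points above and heterozygous RNA as open points below for each probe. The grey band is the range of the local backgrounds. Fabp7, Vim probe 1 and Slc1a3 probe 1 lie far to the right of the band in both RNAs, while Hes1 and the further probes of Slc1a3 lie at its edge or inside it.

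None of the 10 genes differed between the genotypes at the threshold used. Ratios are log2 values of null over heterozygous after background correction and loess normalization, averaged over the 2 arrays of a pool. A gene was read by its brightest probe, the one of highest mean intensity, and tested against 0 with limma, with Benjamini-Hochberg adjustment over all 18295 genes. At an adjusted p under 0.05, 0 genes of the set were higher and 0 lower, while 908 of all genes (4.96%) passed, or 7.39% of the genes above background. The smallest adjusted p of the set was 0.0903, for Hes5. At an unadjusted p under 0.05 there were 3 genes, Hes5, Fabp7 and Sox2, all higher in the null RNA, against 20.5% of all genes in either direction and 10.8% in the higher direction. In a fit over all probes, 0 of the 18 probes passed, against 2.57% of 41174, and the smallest adjusted p of a probe was 0.108.

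Most ratios lay above 0 without reaching the threshold. The mean ratio was above 0 for 8 of 10 genes, against 47.8% of all genes, and below 0 for Sox9 and Slc1a3. The median over the 10 genes was 0.09, with 0.09, 0.03 and 0.13 in pools 1, 2 and 3, against -0.0027 over all genes. The 3 genes Sox2, Hes5 and Fabp7 were above 0 on all 6 arrays, as were 10.9% of all genes, and 0 genes of the set were below 0 on all 6, as were 9.27% of all genes. For the same 3 genes the normalized levels of the 2 RNAs did not overlap over the pools, a pattern found in 22.4% of all genes. All arrays share the null pool, so agreement between arrays includes whatever is particular to that pool.

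**Figure D2:**
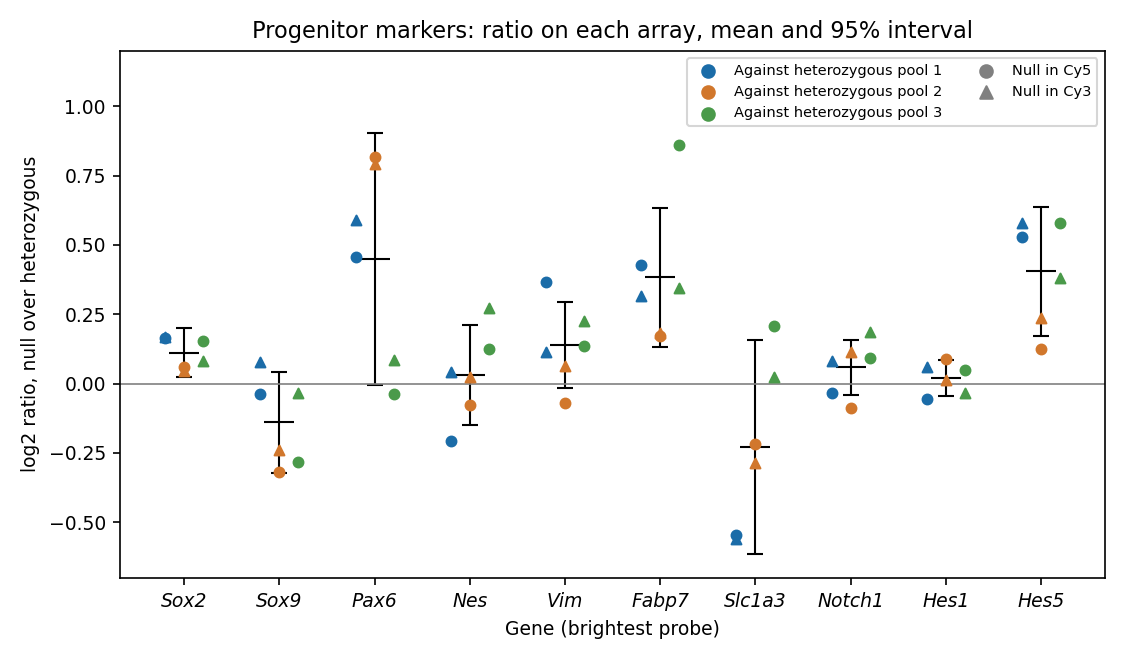
The log2 ratio of null over heterozygous RNA for the brightest probe of each gene, with 1 symbol per array, colour for the heterozygous pool and shape for the dye of the null RNA. The horizontal bar is the mean of 3 pools and the error bar its 95% confidence interval from limma. Sox2, Fabp7 and Hes5 lie above 0 on all 6 arrays, and the pools of Pax6 and Slc1a3 spread widely while their 2 dye orientations lie close together.

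Among the transcription factors, Sox2 was dim. Sox2 encodes an HMG-box factor that keeps neural progenitors in their state, and its single probe read a lowest, median and highest signal of 59.08, 71.14 and 80.0 in the null RNA and 54.88, 62.45 and 68.85 in the heterozygous RNA. Backgrounds were 42 and 41 (medians), and the probe was well above them on 6 arrays in the null RNA and 4 in the heterozygous RNA. Raw signals also differ by dye, with each RNA in Cy5 on 3 arrays, so ratios and levels within arrays carry the comparison. The normalized level (log2, after scaling the average intensity of the arrays) was 6.298, 6.258 and 6.328 in the null RNA on the arrays of pools 1 to 3, against 6.132, 6.206 and 6.211 in the heterozygous RNA. These levels did not overlap, and the ratio was 0.11 ± 0.06 (SD, n = 3; 95% interval 0.02 to 0.20; limma adjusted p = 0.162). The offset of 50 added in the background correction shrinks the ratio and the SD of a probe this dim toward 0. Sox2 read 0.35 with an offset of 0 and 0.38 with plain background subtraction, and did not pass in either setting (adjusted p = 0.175 and 0.203).

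Sox9, an HMG-box factor of neural stem cells and later of glia, was read by 3 probes. The brightest had a lowest, median and highest signal of 323, 376.2 and 507.7 in the null RNA and 288.9, 417.9 and 541.1 in the heterozygous RNA. Its ratios in pools 1 to 3 were 0.02, -0.28 and -0.16, with a mean of -0.14 ± 0.15 (adjusted p = 0.358), and the ranges of the 2 RNAs overlapped. The other 2 probes read 0.03 ± 0.09 and 0.01 ± 0.0028, and they were above background on 5 arrays and 1 array in each RNA.

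Pax6 had the highest mean ratio of the set and the widest spread. It encodes a paired-box homeodomain factor of progenitors that some postmitotic neurons also keep. The brightest probe read a lowest, median and highest signal of 308.4, 348.6 and 485.3 in the null RNA, against 232.4, 247.5 and 353.1 in the heterozygous RNA. In normalized levels the null RNA gave 8.537, 8.561 and 8.580, against 8.013, 7.758 and 8.557 in heterozygous pools 1, 2 and 3. The repeated hybridisations of the null pool lay within 0.04 of each other, and the heterozygous pools covered 0.80. Heterozygous pools 1 and 2 lay below the null RNA and pool 3 lay level with it, so the groups overlapped. The ratios were 0.52, 0.80 and 0.02, with a mean of 0.45 ± 0.40 (95% interval -0.0038 to 0.90; adjusted p = 0.246). Its SD exceeded that of 99.1% of the genes above background. The 2 dye orientations of a pool differed by 0.09 on average, while the pools differed by up to 0.78, so the spread was larger between pools than between the arrays of a pool. A second probe, above background on 6 arrays in the null RNA and 4 in the heterozygous RNA but near it, read 0.0011 ± 0.025, so the probes did not give the same value. The third was never above background.

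The filament genes overlapped between the genotypes. Nes, which encodes nestin, had 1 probe with a lowest, median and highest signal of 220.0, 249.9 and 343.7 in the null RNA and 157, 272.8 and 316 in the heterozygous RNA. Its ratios were -0.08, -0.03 and 0.20 in pools 1 to 3, and the mean of 0.03 ± 0.15 had a 95% interval of -0.15 to 0.21 (adjusted p = 0.869). Averaged by dye orientation, Nes read -0.05 where Cy5 labelled the null RNA and 0.11 where Cy3 did. Vim encodes vimentin, and its brighter probe read 1178, 1300.0 and 2411 in the null RNA, against 858.5, 1216 and 1706 in the heterozygous RNA. The Vim ratio was 0.24, -0.0035 and 0.18 in the 3 pools, with a mean of 0.14 ± 0.13 (95% interval -0.02 to 0.30; adjusted p = 0.289). Its second probe, above background on 1 array in the null RNA and 2 in the heterozygous RNA, read -0.07 ± 0.0089.

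The radial glial genes Fabp7 and Slc1a3 had mean ratios of opposite sign. Fabp7, a brain fatty acid-binding protein, had 1 probe with a lowest, median and highest signal of 2130.0, 2697 and 3935 in the null RNA and 1535, 1934 and 2879 in the heterozygous RNA. Its normalized levels were 11.39, 11.41 and 11.51 in the null RNA, against 11.02, 11.24 and 10.90 in heterozygous pools 1, 2 and 3, with no overlap. The ratios were 0.37, 0.18 and 0.60, and the mean was 0.38 ± 0.21, or 1.30-fold (95% interval 1.10 to 1.55), with an adjusted p of 0.113. A single array stood apart: against pool 3, with Cy5 on the null RNA, it read 0.86, against 0.17 to 0.43 on the other 5. By dye orientation, Fabp7 averaged 0.49 where Cy5 labelled the null RNA and 0.28 where Cy3 did.

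Slc1a3 encodes the glutamate transporter also called GLAST. The brightest of its 3 probes read a lowest, median and highest signal of 457.6, 540.9 and 801.5 in the null RNA and 403.2, 762.8 and 819.6 in the heterozygous RNA. Normalized levels were 9.137, 9.180 and 9.192 in the null RNA, against 9.689, 9.432 and 9.076 in heterozygous pools 1, 2 and 3, so pools 1 and 2 lay above the null RNA and pool 3 below it. The ratios were -0.55, -0.25 and 0.12, with a mean of -0.23 ± 0.33 (95% interval -0.61 to 0.16; adjusted p = 0.478). The SD exceeded that of 98.2% of the genes above background, and here too the dye orientations of a pool lay close, at 0.09 apart on average against a range of 0.67 between pools. The other 2 probes were not measurably above background, with 0 and 1 of 12 readings above it.

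**Figure D3:**
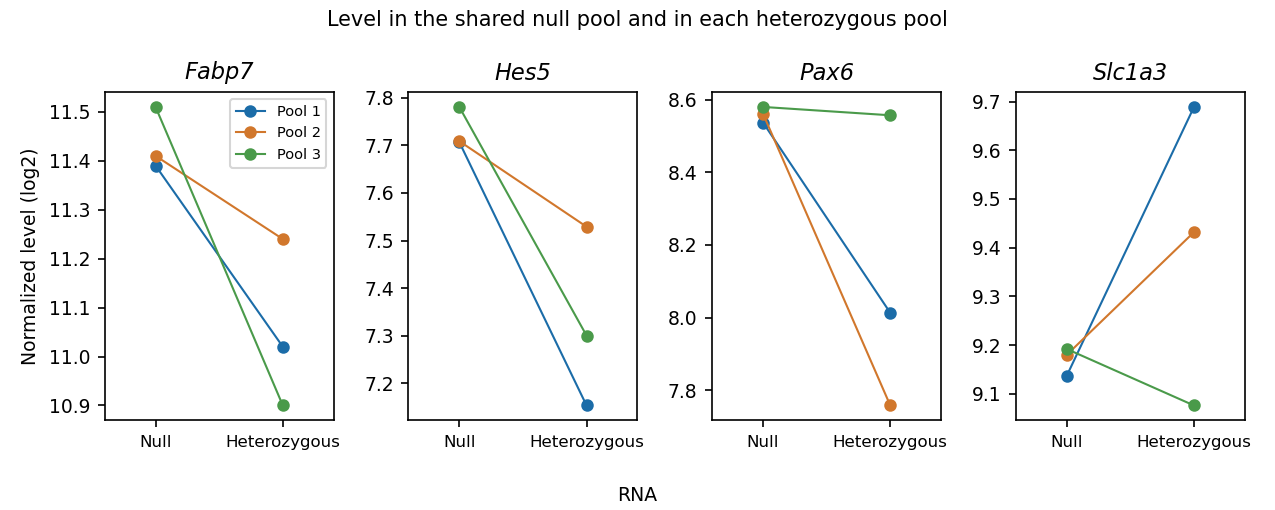
Normalized log2 level of 4 genes in the null RNA (left) and in the heterozygous RNA (right), with a line for each heterozygous pool and the null reading from the same arrays. Each panel has its own vertical range. The null readings of each of these genes lie close together and are repeated hybridisations of 1 pool. The heterozygous pools spread by 0.33 for Fabp7, 0.38 for Hes5, 0.80 for Pax6 and 0.61 for Slc1a3. For Vim, Notch1 and Hes1, not shown here, the null readings covered a wider range than the heterozygous pools.

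Of the Notch pathway members of the set, the receptor gene Notch1 had a mean ratio near 0. Its brighter probe had a lowest, median and highest signal of 144.9, 150.4 and 188.6 in the null RNA and 114.2, 146.4 and 180.7 in the heterozygous RNA. The ratios were 0.02, 0.01 and 0.14, and the mean of 0.06 ± 0.07 had a 95% interval of -0.04 to 0.16 (adjusted p = 0.482). Both Notch1 probes were above background on all arrays, and the second read 0.02 ± 0.07. Hes1, a basic helix-loop-helix repressor that is a classical Notch target, was not measured well. Its single probe read a lowest, median and highest signal of 46.33, 53.92 and 58.80 in the null RNA and 45.47, 51.44 and 56.23 in the heterozygous RNA, over background medians of 40 and 39.5. It passed the background criterion on 2 arrays in the null RNA and 1 in the heterozygous RNA, so its ratio of 0.02 ± 0.03 does not show an unchanged level.

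Hes5, the repressor most closely tied to Notch activity in neural progenitors, came nearest to the threshold. Its single probe read a lowest, median and highest signal of 167, 212 and 239.6 in the null RNA and 111.5, 141.8 and 204.5 in the heterozygous RNA, and passed the background criterion on all 6 arrays in both. Normalized levels were 7.707, 7.709 and 7.781 in the null RNA, against 7.153, 7.529 and 7.300 in heterozygous pools 1, 2 and 3. Every heterozygous pool lay below every reading of the null pool. The ratios were 0.55, 0.18 and 0.48, with a mean of 0.40 ± 0.20, or 1.32-fold (95% interval 1.13 to 1.56; adjusted p = 0.0903). By dye orientation, Hes5 averaged 0.41 where Cy5 labelled the null RNA and 0.40 where Cy3 did. For Hes5, Fabp7 and Sox2 alike, heterozygous pool 2 gave the smallest ratio of the 3 pools, while for Pax6 it gave the largest.

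The choice of model decided the call for 2 genes. With the 6 arrays in 1 limma fit that has a dye term and the pool as a random block, Hes5 (adjusted p = 0.0168) and Fabp7 (adjusted p = 0.0455) passed, and the number of genes called was 2221 in place of 908. That fit gives the same mean ratios and counts the 2 arrays of a pool as partly separate readings, with a correlation of 0.39 within pools. In the other 13 alternatives 0 genes of the set passed.

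The wider Notch pathway was read from lists of ligands, receptors, processing enzymes, nuclear partners and target genes. Across all genes, 3.09% were higher and 1.87% lower at the threshold. The calls named from here on ended when any 1 heterozygous pool was left out of the limma fit, where 0 genes passed in all. Among 7 measured ligands, 0 rose and 1 fell, with a median of -0.08. The random-block model gave 1 rise and 1 fall. The 1 that fell was Dner, a neuronal transmembrane ligand, with pools at -0.30, -0.46 and -0.53 and a mean of -0.43 ± 0.12 (adjusted p = 0.0410). A second Dner probe, also above background on all arrays, read -0.12 ± 0.19 and did not pass. Dll1, the main ligand on newborn neurons, read -0.26 ± 0.18 with all 6 arrays below 0 (adjusted p = 0.182). Dlk1, a non-canonical ligand that dopaminergic neurons also express, read 0.25 ± 0.10 with all 6 arrays above 0 (adjusted p = 0.0786). Dll3 read -0.08 ± 0.22, Jag1 -0.08 ± 0.05 and Jag2 -0.14 ± 0.10. Dll4 was above background on 1 array in each RNA.

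Of the 4 receptor genes, Notch1 included, 0 passed in either direction. Notch2 read -0.0059 ± 0.024 and Notch3 0.10 ± 0.10, and Notch4 was not above background on any array. With median centring in place of loess, Notch2, Dll3, Sox1 and Sox10 change sign. Of 23 measured genes for processing of ligands and receptors, 0 passed, and their ratios ran from -0.11 to 0.06. Among 14 measured genes of the nuclear complex, 0 rose and 1 fell. The random-block model gave 1 rise and 2 falls. There was also 1 rise with dim probes left out and with the null RNA in Cy5 alone. The gene that fell was Tle4, a Groucho co-repressor that works with Hes proteins, with a mean of -0.29 ± 0.02 (limma adjusted p = 0.0261). Its brightest probe read -0.29 in pool 1, -0.31 in pool 2 and -0.28 in pool 3. A second Tle4 probe, above background on 1 array in the heterozygous RNA and 0 in the null RNA, read -0.0062 ± 0.0049. Other members of this list, chosen here after their values were seen, were the Notch DNA-binding partner Rbpj at -0.22 ± 0.18 and the co-repressors Tle1 at -0.39 ± 0.22 and Tle3 at 0.41 ± 0.17.

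The target genes of the pathway did not share a direction. Among 10 genes of the Hes, Hey and Notch target list, Hes1 and Hes5 included, 0 rose and 1 fell, with a median of 0.01. The random-block model gave 2 rises and 1 fall. Hey1, a repressor related to Hes proteins, fell in the null RNA: it had a median signal of 391.8 in the null RNA and 576.3 in the heterozygous RNA, and ratios of -0.39, -0.36 and -0.54 (mean -0.43 ± 0.10; adjusted p = 0.0337). Hey1 lay below 0 on all 6 arrays and Hes5 above 0 on all 6. Hes2 read 0.15 ± 0.03 with all 6 arrays above 0 (adjusted p = 0.0571), and Hes6, which promotes neuronal differentiation, read 0.14 ± 0.22. Hes3 read 0.04 ± 0.02, Heyl -0.05 ± 0.15 and the feedback inhibitor gene Nrarp -0.03 ± 0.23. Hes7 and Hey2 were above background on 0 arrays in the null RNA, and Hey2 on 1 in the heterozygous RNA.

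The relatives of Sox2 and Sox9 gave 1 call. Of 8 SoxB and SoxE genes, both included, 1 rose and 0 fell: Sox14, a SoxB factor of postmitotic interneurons, at 0.22 ± 0.03 (adjusted p = 0.0370), while its second probe, above background on 1 array, read -0.02 ± 0.06. Sox14 is dim too, and its ratio was 0.55 with an offset of 0 and 0.58 with plain subtraction, where it did not pass (adjusted p = 0.0751 and 0.117). Sox1 read -0.01 ± 0.08, Sox21 0.06 ± 0.06 and the glial factor gene Sox10 -0.0085 ± 0.14. Sox3 was not above background on any array, and Sox8 was on 1 array in the heterozygous RNA.

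A wider list of radial glial and stem cell genes was centred near 0. Of 30 such genes, 24 above background, 0 rose and 1 fell, and the median was -0.0028. The count of rises was 4 in the random-block model, 2 with dim probes left out, and 1 each with the mean over probes and in either dye orientation alone. The 1 that fell was the glutamate transporter gene Slc1a2, at -0.41 ± 0.11 (adjusted p = 0.0407), on its brightest probe. A further Slc1a2 probe, above background on 5 arrays in the null RNA and 4 in the heterozygous RNA, read -0.02 ± 0.04. Ednrb at 0.33 ± 0.13, Phgdh at 0.30 ± 0.11 and Dbi at 0.21 ± 0.15 had the highest ratios of this list and did not pass, and they were chosen after their values were seen. Of 19 proneural and intermediate progenitor genes, 1 rose and 1 fell, with a median of 0.01. Neurog3, a proneural factor with a dim probe, was at 0.24 ± 0.04, and at 0.60 with an offset of 0 and 0.64 with plain subtraction, where it did not pass (adjusted p = 0.0710 and 0.116). In the same list the co-repressor gene Cbfa2t2 was at -0.36 ± 0.10 on 1 of its 4 probes, the one above background, and the random-block model gave 3 falls.

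**Figure D4:**
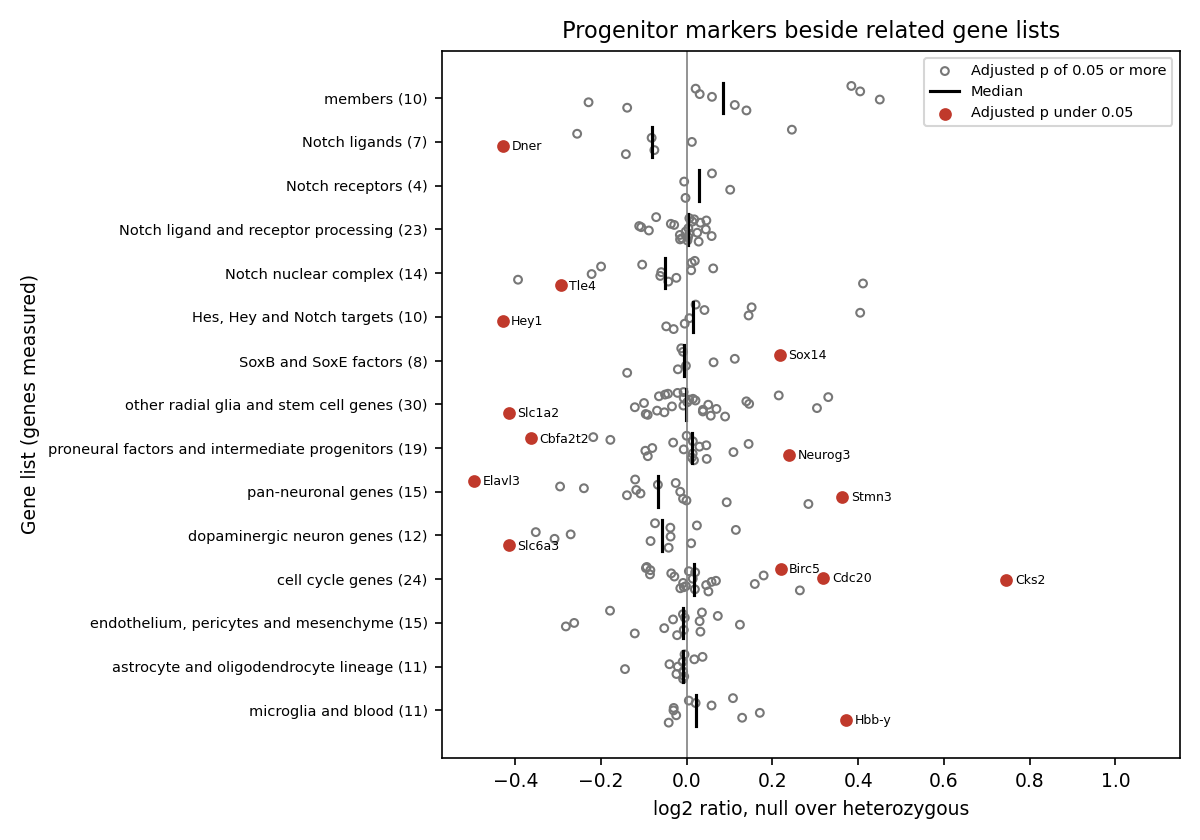
Log2 ratio of null over heterozygous RNA for each measured gene of the progenitor markers (members, top row) and of related lists, with the median of each list as a black bar and genes at an adjusted p under 0.05 filled and named. Some lists share genes with the top row, such as Hes5 and Sox2. The top row has a median of 0.09 and no filled point, and the lists below it hold 0 to 3 filled points each.

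Markers of dividing cells, of neurons and of other cell types were read beside the set. Of 24 cell cycle genes, 3 rose and 0 fell, with a median of 0.02. Cks2, a subunit of cyclin-dependent kinases, was at 0.75 ± 0.09 on its brightest probe and 0.52 ± 0.06 on a second that also passed, Cdc20, an activator of the anaphase-promoting complex, at 0.32 ± 0.08, and Birc5, a mitotic survival protein gene, at 0.22 ± 0.04. The proliferation marker Mki67, chosen after its value was seen, read 0.05 with an adjusted p of 0.686. The summed normalized intensity of the cell cycle list was 3887 to 4102 in the null RNA, against 3560 to 3661 in the heterozygous RNA. The same sum over the 10 progenitor markers, which is weighted toward bright probes such as that of Fabp7, was 6217 to 6436 in the null RNA and 5156 to 5912 in the heterozygous RNA. Both sums are carried in part by single genes. Without Fabp7 the sum of the progenitor markers was 3488 to 3643 in the null RNA and 3239 to 3498 in the heterozygous RNA, which overlap. Without Cks2 the cell cycle sum was 3453 to 3635 in the null RNA, against 3294 to 3402 in the heterozygous RNA, and 10 of the 24 cell cycle genes had ratios below 0. Other lists leaned the other way. The Notch ligands summed to 6299 to 7159 in the null RNA and 7669 to 9561 in the heterozygous RNA, but overlapped without Dner. The nuclear complex gave 3026 to 3151 and 3365 to 3535 in the same order, and 1781 to 1845 and 1869 to 1887 without Tle4. The wider radial glial and stem cell list gave 4865 to 5022 and 4997 to 5314, which overlap. The receptor, processing, target, Sox and proneural sums overlapped too. In each list the gene left out of the sum, the one that differed most between the RNAs, was chosen after the values were seen.

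Of 15 pan-neuronal genes, 1 rose and 1 fell, with a median of -0.07: the microtubule regulator gene Stmn3 at 0.36 ± 0.07 and the neuronal RNA-binding protein gene Elavl3 at -0.50 ± 0.14. A second Elavl3 probe, not above background on any array, read 0.0083 ± 0.0019. Ratios lay above 0 for 3 of the 15 genes. Their summed intensity was 9663 to 10482 in the null RNA and 8645 to 9694 in the heterozygous RNA, which runs against the list's median. Without Uchl1, a bright ubiquitin hydrolase gene of neurons with a ratio of 0.28, the sum was 4087 to 4187 in the null RNA and 4304 to 4500 in the heterozygous RNA. Of 12 dopaminergic genes, 0 rose and 1 fell, with a median of -0.06. Ratios lay above 0 for 3 of the 12, against 47.8% of all genes. The count of falls was 2 in the random-block model, with the mean over probes and in either dye orientation alone. The 1 was the dopamine transporter gene Slc6a3, whose probe was above background on 2 arrays in the null RNA and 6 in the heterozygous RNA. Its ratio of -0.42 ± 0.02 is shaped by the offset of 50: it was -1.36 with an offset of 0 and -1.53 with plain subtraction, where it did not pass (adjusted p = 0.0652 and 0.116). The size of the difference is therefore not settled. The list's summed intensity was 1424 to 1577 in the null RNA, against 1514 to 1867 in the heterozygous RNA.

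Markers of non-neuronal cells held 1 call. Of 15 genes of endothelium, pericytes and mesenchyme 0 passed in either direction, with 1 rise in the random-block model, and their sum was 1501 to 1508 in the null RNA and 1491 to 1812 in the heterozygous RNA, with Pecam1 and Lum not above background on any array. Of 11 genes of astrocytes and oligodendrocytes 0 passed, with a sum of 975 to 991 in the null RNA and 977 to 1046 in the heterozygous RNA. In that list Gja1 and Mog were not above background on any array, and the astrocyte filament gene Gfap was so on 1 array in the null RNA and 0 in the heterozygous RNA. Of 11 microglial and blood genes, 1 rose, the embryonic globin gene Hbb-y at 0.37 ± 0.06, and the sum was 1147 to 1241 in the null RNA and 1044 to 1130 in the heterozygous RNA. The sums of the microglial and blood list did not overlap between the RNAs, while those of the other 2 lists did. Without the globin gene Hba-a1, the microglial and blood sum was 802 to 837 in the null RNA and 761 to 801 in the heterozygous RNA. These ranges nearly met. Hba-a1 differed most between the RNAs, was chosen after the values were seen, and did not pass (ratio 0.17, limma adjusted p = 0.410). Ratios lay below 0 for 4 of the 11 genes. All list sums given here include, for each gene, the offset added in the background correction. Genes near background therefore add a similar amount to the sums of both RNAs, which makes the sums more alike. Overlapping sums thus do not show an equal content of non-neuronal cells. The part of these other cells in the ratios of the progenitor markers was not tested.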

How the data were processed

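RNA of sorted neurons was hybridised to 6 two-colour arrays, 3 heterozygous pools each against 1 null pool in both dye orientations. Per the file headers, the deposited scanner tables give spot and local background intensity for each channel, not normalized, and the authors also deposited normalized intensity values. The authors' deposited series table holds log2 values, the log2 of their normalized Cy5 over Cy3 signal, not turned for swapped arrays. How they normalized is not stated in the labels or headers, and dyes were taken from the labels and checked against those values.

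Of 45220 spots, 4046 were controls. Of 41174 probes, 34186 had 1 symbol and 6988 none, and 3726 symbols were updated through a RefSeq table. The scanner intensities were corrected with normexp (offset 50), normalized by loess with controls at weight 0, turned to null over heterozygous and averaged per pool. A gene was read by its probe of highest mean intensity. limma 3.58.1 in R 4.3.3 (lmFit, eBayes) tested the ratio against 0 across all genes, and levels per RNA were scaled with Aquantile. The number of arrays and pools limits the precision. The pools hold several embryos, so p-values rest on the spread between heterozygous pools, not between embryos or null pools. The fit was tested on simulated data with independent pools. That simulation leaves out the error of the shared null pool, so it cannot show how this error affects the calls.

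The genes, lists and tests were chosen with earlier results of these data known. By rule the text names every probe of the 10 genes, every gene of the ligand, receptor, target and Sox lists, and up to 4 genes past the threshold of each other list. Outside this rule it also names some genes of the other lists that did not pass, such as Rbpj, Ednrb, Mki67, Uchl1, Pitx3 and Th. These were not among the genes examined singly below. Alternatives changed background, normalization, source, probe filter, probe choice, model, dye orientation and pools.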

Additional observations from a re-analysis of the deposited data

Results flagged for a closer look

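Each of 47 measures (the ratios of the 45 genes named by rule, and 2 shares of genes above background) was examined over the 6 arrays with Dixon's ratio for a single array apart from the rest. In 3 of them such an array was found. Chance gives this in about 5% of measures where the 6 arrays are independent. Here they are dye-swapped pairs that share the null pool, so that rate need not hold. Fabp7 read 0.86 against heterozygous pool 3 where Cy5 labelled the null RNA, and 0.17 to 0.43 on the other 5 arrays. Sox21 read -0.10 on that same array, and 0.06 to 0.14 on the other 5. Dll4, which was above background on 1 array in each RNA, read -0.024 against pool 1 where Cy3 labelled the null RNA, and 0.013 to 0.027 on the other 5.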

How the results depend on the processing

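The count of 0 progenitor markers past the threshold was kept in 13 of 14 alternatives, among them 0 to 0 when leaving out each pool. It was 2 with 6 arrays, a dye term and the pool as a random block, where Hes5 and Fabp7 passed and 2221 genes were called. The median of the 10 genes stayed between 0.04 and 0.12. The total of 908 genes was 0 with plain background subtraction, with normexp at an offset of 0, with median centring and with a trended robust variance (3555, 3641, 2604 and 3069 genes at an unadjusted p under 0.05 with limma), and 0 to 0 without each pool (2956 to 3259), which leaves fewer samples. The cause was not tested for the others. The 14 named calls on related lists, such as Hey1, Dner and Tle4, each ended in 7 to 9 of the 14 alternatives, and 0 reversed.

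Of 139 values of the progenitor markers under alternatives, 134 kept their direction and side of the threshold, 3 reversed and 2 passed. Hes1 has no value under the dim-probe filter. The reversed values, for ratios whose cause was not tested, were as follows. With the null RNA in Cy5 alone, Nes was -0.052, Notch1 -0.0096, Dll3 0.026, Notch2 0.036, Sox1 0.017 and Sox10 0.073. With it in Cy3 alone, Hes3 was -0.023. With median centring, Dll3 was 0.011, Notch2 0.0085, Sox1 0.0015 and Sox10 0.025. With the authors' table, Sox1 was 0.0148 and Sox10 0.0053, and with no background correction Sox1 was 0.01498. With the mean over probes, Notch2 was 0.0020 and Sox21 -0.026. When leaving out each pool, Nes ran from -0.054 to 0.087, Dll3 from -0.147 to 0.043, Notch2 from -0.0197 to 0.0034, Heyl from -0.129 to 0.016, Nrarp from -0.160 to 0.064, Sox1 from -0.046 to 0.034 and Sox10 from -0.054 to 0.069. Among the other genes named by rule, Dlk1 (adjusted p = 0.0108) and Hes2 (adjusted p = 0.0457) newly passed in the random-block model. Counts on the lists moved there as well, to 4 rises of other radial glia genes in place of 0, 1 rise and 2 falls in the nuclear complex in place of 0 and 1, 3 proneural falls and 2 dopaminergic falls in place of 1, 2 pan-neuronal and 2 microglial and blood rises in place of 1, and 1 endothelial rise in place of 0. The ligand list had 1 rise in that model in place of 0, and the target list 2 in place of 0. Under other settings, dopaminergic falls were 2 with the mean over probes and in either dye orientation alone. The nuclear complex had 1 rise with dim probes left out and with the null RNA in Cy5 alone. Pan-neuronal falls were 2 in that Cy5 setting, and proneural falls were 2 with the null RNA in Cy3 alone. A slide block was not run, since no slide or scan label is given in the sources used here. Signal near background limits what can be said of Hes1 and Sox2.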
